A study of Daphnia magna with 30 samples.

Results

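Period (PER) is a core protein of the animal circadian clock. In *Drosophila*, the proteins Clock and Cycle switch on the *period* and *timeless* genes, and the PER and Timeless proteins then accumulate in the dark, enter the nucleus and turn down their own transcription. Light resets that loop in flies through Cryptochrome and an F-box/LRR-repeat protein, JETLAG, which together lead to the breakdown of Timeless. The level of *period* RNA in flies therefore rises and falls over the day, and a level measured at a fixed moment after lights-on is a point on that curve.

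The 2 transcripts described here are those measured by the probes DM09904P4 and DM14516P3, the probes that the study's list of responding transcripts names period circadian protein, out of 14338 probes on the array. A further transcript that the study gives this name was not matched to a probe and was not analysed here. The water flea *Daphnia magna* was used, as females of a single genotype that descended from 1 individual kept for years at 16 h of light and 8 h of dark. They were held from birth to 21 days with 4 h of light a day (4L:20D), 8 h (8L:16D), 12 h (12L:12D), 16 h (16L:8D, the control) or 20 h (20L:4D), and the arrays are those of experimental trial 2. From each of 3 exposure chambers per photoperiod, a pair of animals (A and B) was taken and each was hybridized to an array of its own, which gave 30 arrays and 6 animals per photoperiod. In the text, the 3 shorter days are those with 4, 8 and 12 h of light.

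Whole animals were taken within 1 h of lights-on, brood pouches and developing young included, so a lower signal from fewer cells that express a gene and one from less RNA per cell cannot be told apart. The 3 chambers of a photoperiod stood in the same box under the same lamp, and the time spent in the dark just before sampling was 20, 16, 12, 8 or 4 h in the order above. Box, day length and hours of dark before sampling cannot be told apart. Each transcript was read once per animal, at a single time of day, so neither a daily curve nor its phase was measured.

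The study listed both probes as responding in 20L:4D in these same animals, by their p for photoperiod and their difference from 16L:8D. The p for photoperiod covers all 5 photoperiods, so the differences between photoperiods below, whether over animals or over chamber means, are descriptions and not independent evidence. The spread between the chambers of a photoperiod, the animal letter and the agreement of the 2 probes within photoperiods do not rest on differences between photoperiods. The size of the spread within photoperiods does enter the p for photoperiod.

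The sequences of the 2 probes are shown because they are what defines each transcript here, with the longest run of bases that both share in capitals.
DM09904P4: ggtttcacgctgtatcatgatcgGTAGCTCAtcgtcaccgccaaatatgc
DM14516P3: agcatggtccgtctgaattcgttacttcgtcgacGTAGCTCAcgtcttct
Each probe has 50 bases, of which 25 are G or C. The shared run has 8 bases, at positions 24 to 31 of DM09904P4 and 35 to 42 of DM14516P3 counted from the 5′ end, and the longest run shared with the reverse complement has 4. Among the 952 other probes of the study's list, the longest run shared on either strand was 10 bases for DM09904P4 and 12 for DM14516P3. The probes thus read different stretches of RNA. Whether these stretches lie in a single gene or in 2 genes was not determined here, and their place in the genome was not analysed.

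Both transcripts were detected in all 30 animals, by the call of the extraction software that a spot is well above background. The processed signal is the fluorescence of a spot after background subtraction. For DM09904P4 it ran from 90.3 to 301 with a median of 144, and was 7.83 to 34.7 times the lowest signal called well above background on the same array. DM14516P3 lay nearer that limit, with a processed signal of 16.0 to 57.5, a median of 25.2, and 1.29 to 6.15 times the lowest such signal. The error that the extraction software attached to the spot was at most 10.4% of the signal for DM09904P4 and 10.5% to 18.6% for DM14516P3. Local background was 28 to 41.5 around both spots. All levels below are the log2 of the processed signal minus the 75th percentile of the array, so they are negative where a probe is dimmer than that percentile.

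DM09904P4 was highest in the longest day. In 20L:4D its level was -1.42 at the lowest, -1.21 at the median and -1.07 at the highest. In 16L:8D the level was -2.22, -1.97 and -1.47 at the lowest, median and highest. All 6 animals of 20L:4D lay above all 6 of the control, as in 0.385% of all probes. They also lay above all of 8L:16D (0.308% of all probes) and above all of 4L:20D (0.329%).

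The other photoperiods spread more widely for DM09904P4. In 12L:12D the level was -2.65, -2.21 and -1.41 at the lowest, median and highest. The corresponding levels were -2.73, -2.34 and -1.93 in 8L:16D. They were -2.51, -2.09 and -1.85 in 4L:20D. One animal of 12L:12D, animal A of chamber 1, was the only one of the 24 animals outside 20L:4D that reached into the range of 20L:4D.

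The mean of DM09904P4 was -1.24 ± 0.12 in 20L:4D and -1.91 ± 0.25 in the control (SD, n = 6 each). It was -2.13 ± 0.47 with 12 h of light, -2.16 ± 0.29 with 4 h and -2.34 ± 0.30 with 8 h. Animals in 20L:4D also differed least among themselves, with a range of 0.35 against 0.66 to 1.24 in the other photoperiods. The spread was not tested between photoperiods.

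DM14516P3 was likewise highest in 20L:4D. Its level there was -4.30, -3.65 and -3.35 at the lowest, median and highest. In 16L:8D it was -4.98, -4.64 and -4.29. The lowest animal of 20L:4D, animal B of chamber 3, lay just below the highest control animal, and the other 5 lay above all controls.

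For the shorter days, DM14516P3 was at -4.92, -4.64 and -3.96 at the lowest, median and highest in 12L:12D. It was at -5.07, -4.76 and -4.24 in 8L:16D. With 4 h of light it was at -4.77, -4.51 and -4.31, and no animal there reached the range of 20L:4D, as in 0.329% of all probes. Of the 24 animals outside 20L:4D, 3 lay above the lowest animal of 20L:4D, and 4 animals of 20L:4D lay above all 24.

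The mean of DM14516P3 was -3.72 ± 0.36 in 20L:4D and -4.65 ± 0.26 in the control (SD, n = 6 each). It was -4.52 ± 0.20 with 4 h of light, -4.60 ± 0.35 with 12 h and -4.71 ± 0.36 with 8 h. The 2 transcripts thus shared the highest and the lowest photoperiod and differed in the order of the 3 between them, whose neighbours did not differ beyond their spread in either transcript.

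**Figure D1:**
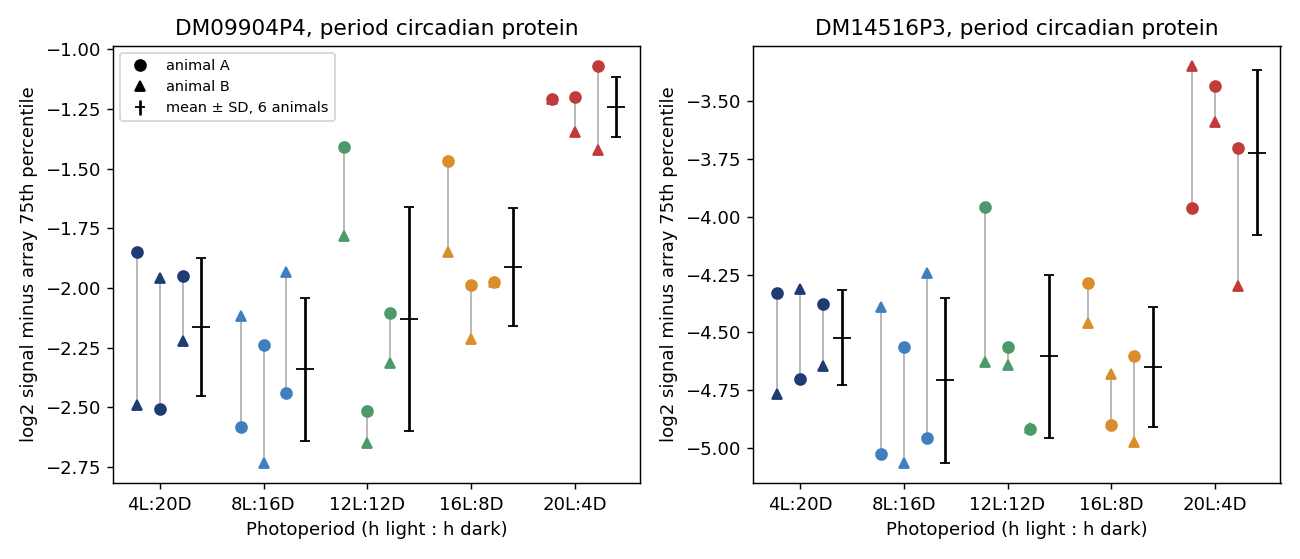
Level of each transcript (y axis, log2 processed signal minus the 75th percentile of the array) in the 6 animals of each photoperiod (x axis). Circles and triangles are animals A and B of a chamber joined by a grey line, and the black bar is the mean ± SD. The 20L:4D animals lie from -1.42 to -1.07 for DM09904P4 and from -4.30 to -3.35 for DM14516P3, above the means of all other photoperiods.

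Photoperiod differences were estimated with limma, a linear model fitted to all probes together, and p-values were adjusted over all 14338 probes. Both transcripts responded to photoperiod at the study's threshold of an unadjusted p under 0.01, as did 11.4% of all probes, with an unadjusted p of 6.57e-05 for DM09904P4 and 0.000162 for DM14516P3 in limma's F test. The adjusted p was 0.0138 and 0.018, and 5.57% of all probes were under 0.05. Normexp background correction starts from the median spot signal and its local background, and adds an offset of 50. After it the unadjusted p in limma's F test was 0.000664 for DM09904P4 and 0.138 for DM14516P3, and the second no longer passed. The adjusted p was above 0.05 for both transcripts with slide as a block (0.104 and 0.0805), over chamber means (0.0731 and 0.0577) and with principal components 1 and 2 of the within-photoperiod spread as covariates (0.0697 and 0.0585). It was 0.0535 and 0.569 with normexp. For DM14516P3 it was 0.0615 without chamber 2 of 12L:12D and 0.0571 without chamber 2 of 20L:4D.

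Against the control, DM09904P4 was 1.59-fold higher in 20L:4D (log2 difference 0.67 ± 0.19, limma standard error, 95% interval 0.28 to 1.06). DM14516P3 was 1.90-fold higher (0.93 ± 0.19, 0.53 to 1.32). Both were called by the study's rule, which asks for a response to photoperiod, an unadjusted p under 0.05 and at least 1.5-fold, and which 0.356% of all probes passed upward in 20L:4D. Since that contrast put the probes on the list, nothing is read from their count.

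After adjustment over all probes, neither difference from the control passed 0.05 in limma (adjusted p = 0.484 for DM09904P4 and 0.317 for DM14516P3), and 0 of the 14338 probes did, while 878 had an unadjusted p under 0.05. The call of DM09904P4 was lost with slide as a block (0.50 ± 0.25), with normexp (0.51 ± 0.17) and without chamber 2 of 16L:8D (0.57 ± 0.21). The call of DM14516P3 was lost with normexp (0.48 ± 0.23). Under normexp the median of all probes in 20L:4D itself moved to 0.11, which leaves 0.40 and 0.37 relative to it. A threshold of 2-fold in place of 1.5-fold excluded both.

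**Figure D2:**
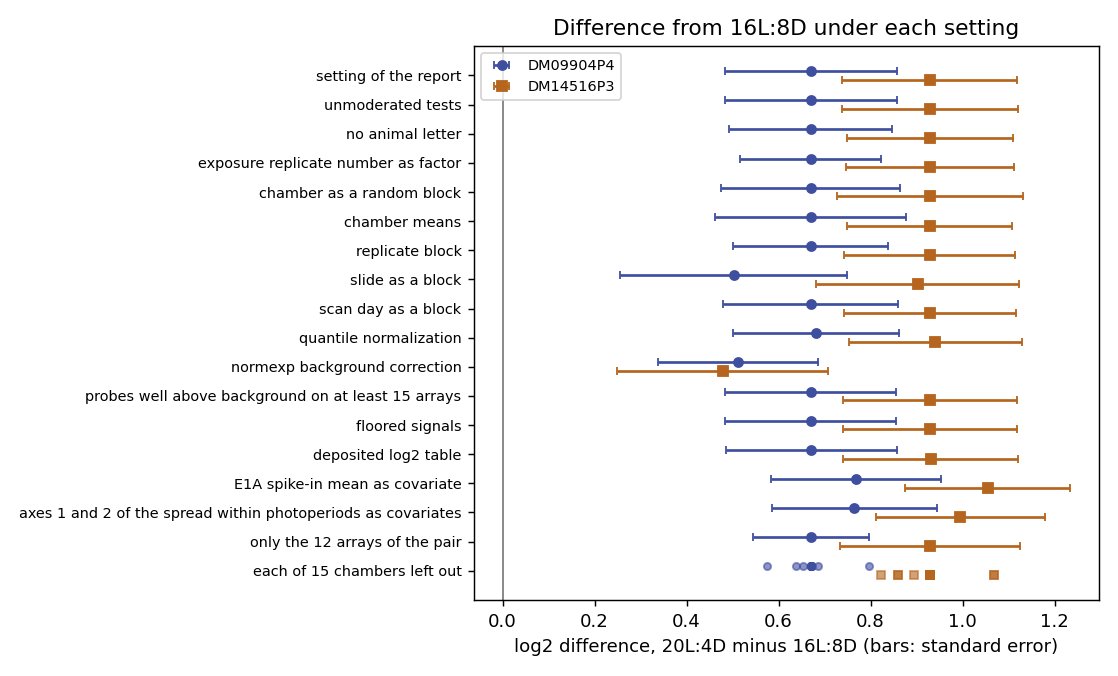
Log2 difference 20L:4D minus 16L:8D (x axis) of each transcript under each way of processing the arrays (y axis), with limma standard errors as bars, and with each of the 15 chambers left out in the bottom row. All values are above 0, and the lowest are 0.50 for DM09904P4 with slide as a block and 0.48 for DM14516P3 with normexp.

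Neither transcript was called against the control in any of the 3 shorter days, where 4.58% (4 h), 4.15% (8 h) and 6.29% (12 h) of all probes were called in either direction. For DM09904P4 the largest of these was 8L:16D, which was lower by 0.43 ± 0.19 on the log2 scale (1.35-fold, unadjusted p = 0.0316, adjusted p = 0.261, limma) and so below the fold threshold. With slide as a block it was called there (log2 difference -0.63 ± 0.25). Other settings weakened it. It was -0.26 ± 0.20 with the E1A spike-in mean as a covariate (unadjusted p = 0.199, limma). Without chamber 1 of 16L:8D it was -0.30 ± 0.21 (unadjusted p = 0.163, limma), and over chamber means its unadjusted p was 0.0611 in limma. With 4 and 12 h of light the log2 differences of DM09904P4 were -0.25 ± 0.19 and -0.22 ± 0.19. Those of DM14516P3 were 0.13 ± 0.19, -0.058 ± 0.19 and 0.047 ± 0.19 with 4, 8 and 12 h, each smaller than its standard error. The study listed both probes in the longest day only, so the lack of a call in the shorter days is tied to that listing. The paper reports lower period circadian protein expression in short days from these animals. That report also covers the further transcript of this name, which was not analysed here. The lack of a call therefore does not show that period transcripts were unresponsive to short days.

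The longest day also stood above the shorter days. DM09904P4 was 2.14-fold higher in 20L:4D than in 8L:16D (log2 difference 1.10 ± 0.19, adjusted p = 0.00774, limma), where 0.139% of all probes were higher at an adjusted p under 0.05. It was 1.85-fold higher than in 12L:12D (0.89 ± 0.19, adjusted p = 0.0124), where 2.94% were. It was 1.89-fold higher than in 4L:20D (0.92 ± 0.19), where the adjusted p of 0.0501 just missed 0.05 and 0.0976% of all probes passed.

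DM14516P3 was 1.98-fold higher in 20L:4D than in 8L:16D (log2 difference 0.99 ± 0.19, adjusted p = 0.0273, limma) and 1.84-fold higher than in 12L:12D (0.88 ± 0.19, adjusted p = 0.014). Against 4L:20D it was 1.74-fold higher (0.80 ± 0.19, adjusted p = 0.0975), which did not pass. These contrasts share the 20L:4D animals with the one that listed the probes. In limma, 0 of the 14338 probes were higher in 20L:4D than in each of the other 4 photoperiods at an adjusted p under 0.05.

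**Figure D3:**
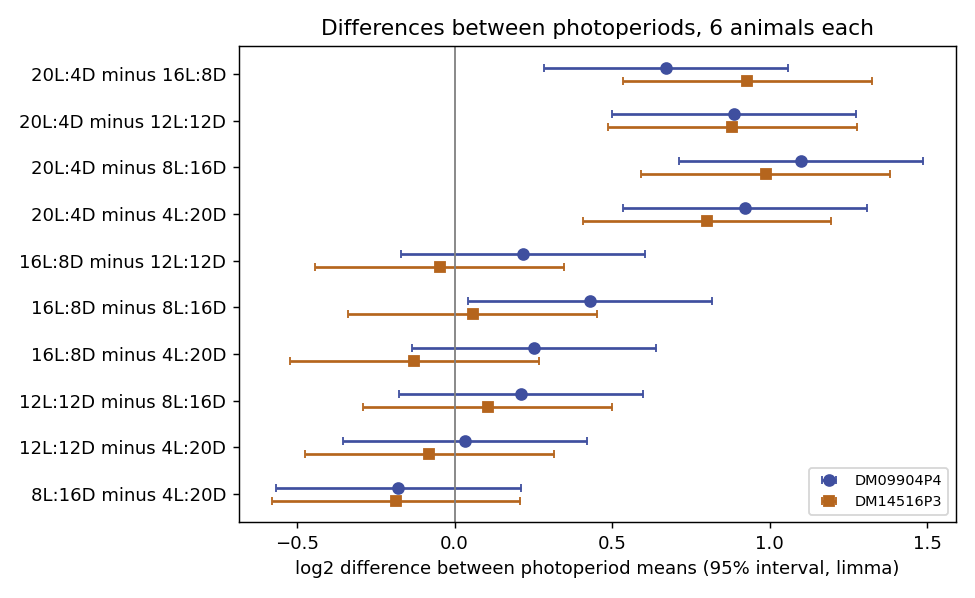
Log2 difference between the photoperiods of each of the 10 pairs (y axis), with 95% intervals from limma (x axis), 6 animals per photoperiod. The 4 differences from 20L:4D lie between 0.67 and 1.10 for both transcripts with intervals above 0, and of the 12 others only 16L:8D minus 8L:16D of DM09904P4 has an interval above 0 (0.04 to 0.82).

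Among the 3 shorter days, which enter the listing through the p for photoperiod only, no difference was found for either transcript. The F test of limma among the 3 shorter days gave an adjusted p of 0.738 for DM09904P4 and 0.815 for DM14516P3 (unadjusted 0.489 and 0.625), where 4.4% of all probes had an unadjusted p under 0.01. The widest difference among these 3 was 12L:12D minus 8L:16D in DM09904P4, at 0.21 with a 95% interval of -0.18 to 0.60, so with 6 animals per photoperiod the interval reached differences of up to 0.60. For DM14516P3 it was 8L:16D minus 4L:20D, at -0.19 with an interval of -0.58 to 0.21.

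With 16L:8D added, the F test among the 4 photoperiods other than 20L:4D gave an unadjusted p of 0.181 and 0.796 (adjusted 0.356 and 0.859) in limma, while 27.2% of all probes had an unadjusted p under 0.05. A contrast of 20L:4D with the mean of these 4, chosen after the values were seen, gave 0.89 ± 0.15 for DM09904P4 and 0.90 ± 0.15 for DM14516P3, which ranked 11th and 13th of 14338 probes by their p. These ranks are a description only.

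A straight line over hours of light showed the same shape. Over all 5 photoperiods the slope of DM09904P4 was 0.057 ± 0.012 log2 units per hour of light and that of DM14516P3 was 0.041 ± 0.013 (limma, adjusted p = 0.0173 and 0.0929), where 1.1% of all probes had an adjusted p under 0.05. Without 20L:4D the slopes were 0.024 ± 0.016 and -0.007 ± 0.014, and neither passed (limma, adjusted p = 0.374 and 0.809), while 3.45% of all probes did. Without the longest day no rise was thus detected in either transcript. For DM09904P4 the slope stayed positive and too imprecise to exclude a rise.

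The 2 transcripts did not differ detectably in how they changed. The log2 ratio of DM14516P3 to DM09904P4 within an animal was -2.36 ± 0.11, -2.37 ± 0.095, -2.47 ± 0.37, -2.74 ± 0.21 and -2.48 ± 0.31 from the shortest to the longest day (SD, n = 6 each). A permutation test of the chamber means of that ratio over the 5 photoperiods gave p = 0.285 with 100000 draws. From 16L:8D to 20L:4D the ratio changed by 0.26 (exact permutation test of 3 against 3 chambers, two-sided p = 0.3, smallest possible 0.1). Only the change of this ratio is meaningful, since the brightness of different probes cannot be compared.

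Within a photoperiod, chambers did not differ detectably beyond the animals inside them. Animals A and B of a chamber differed by 0.35 at the median over the 15 chambers for DM09904P4, and by up to 0.64. For DM14516P3 the difference was 0.39 at the median and up to 0.72. The F test for chamber within photoperiod in limma gave an unadjusted p of 0.125 and 0.537 (adjusted 0.633 and 0.84). Of all probes, 2.04% had an unadjusted p under 0.01. The widest range of chamber means was 0.99, for DM09904P4 in 12L:12D, where the animals of a chamber differed by 0.13 to 0.38. The adjusted p was 0.988 and 0.991 for the animal letter, and 0.967 and 0.956 for its interaction with photoperiod.

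The chamber means bear on the exposure replicates. For DM09904P4 the 3 chambers of 20L:4D had means of -1.21, -1.27 and -1.25, and the 12 other chambers lay between -2.58 and -1.60. For DM14516P3 they were -3.65, -3.51 and -4.00, and the 12 others lay between -4.92 and -4.29. The share of all probes whose chamber means part in this way was not determined. With 3 chambers against 3, the exact two-sided permutation test gave p = 0.1 for 20L:4D against each other photoperiod in both transcripts, which is the smallest p it allows. These are the animals and the contrast that listed the probes, so this p describes the chambers and adds no independent support. Chamber 1 of 12L:12D was the highest of its photoperiod in both transcripts, at -1.60 and -4.29, and chamber 1 of 16L:8D was the highest of the control, at -1.66 and -4.37.

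The arrays lay on 9 slides, of which 4 held both 20L:4D and other photoperiods. On each of the 4, the mean of 20L:4D was above the mean of the other arrays, by 0.54 to 1.29 for DM09904P4 and by 0.82 to 1.13 for DM14516P3. The control shared only 2 of these slides. On the slide with 1 array of each, 20L:4D was 0.91 and 0.90 higher than 16L:8D for DM09904P4 and DM14516P3. On the slide with 2 arrays of each it was 0.42 and 0.73 higher, and there the animals overlapped for DM14516P3 only. That second slide was the only one scanned on the later of 2 days. It held 2 arrays of each of these photoperiods, so scan day as a block could not move their differences of 0.67 and 0.93. An effect of scan day on them was not tested.

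The 2 probes rose and fell together from animal to animal, also inside a photoperiod. After the mean of each photoperiod was taken off, Pearson's r over the 30 animals was 0.69 (permutation within photoperiods, 100000 draws, p = 7e-05) and Spearman's rho was 0.70 (p = 5e-05). Without the 2 animals farthest from the median of DM09904P4, both of them from 12L:12D, r was 0.65 (permutation p = 0.00022). It was 0.76 over the 24 animals outside 20L:4D, a set chosen after the data were seen. This was the only relation across animals that was tested.

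Values within a photoperiod varied. With 6 animals each, r was 0.96 and 0.97 with 4 and 8 h of light, and 0.62, 0.68 and 0.50 with 12, 16 and 20 h. In 8L:16D, for example, animal B of chamber 2 was the lowest and animal B of chamber 3 the highest in both transcripts. In 20L:4D the lowest animal in both was animal B of chamber 3. Over the 15 chamber means r was 0.59 and did not pass (permutation p = 0.156), so the agreement was seen between animals and not shown between chambers.

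**Figure D4:**
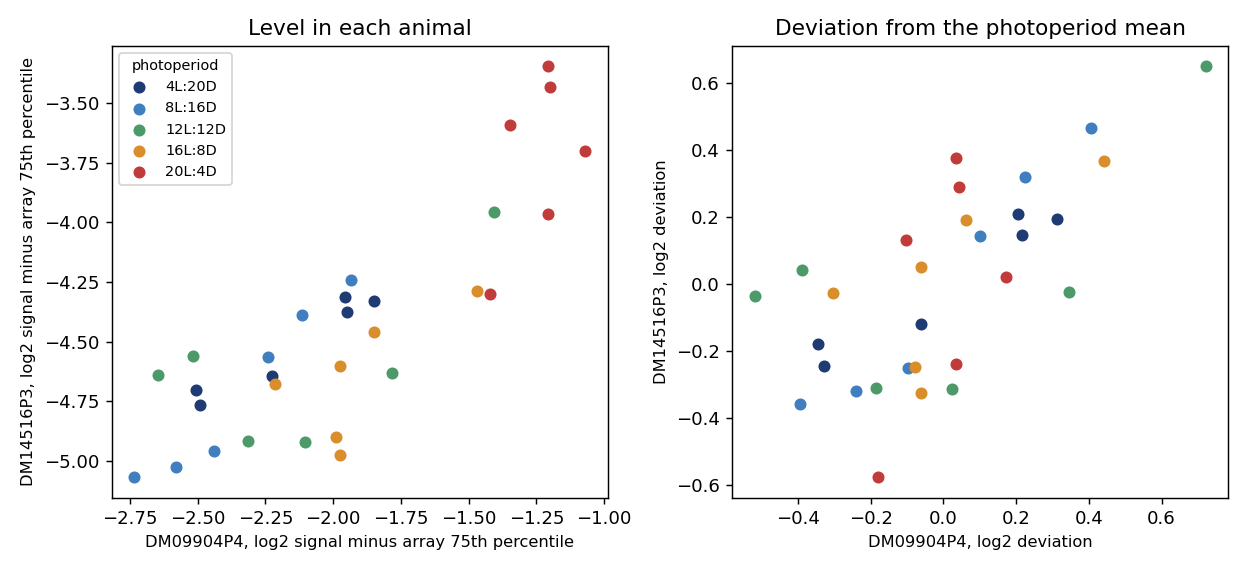
DM14516P3 (y axis) against DM09904P4 (x axis) in the 30 animals, coloured by photoperiod, as log2 levels scaled to the array (left) and as deviations from the mean of the photoperiod (right). The deviations rise together with r = 0.69, and the animal with the highest deviation in both is animal A of chamber 1 of 12L:12D.

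Probes on an array share its RNA, label and scaling, so the r of each transcript with all 14238 other probes measured on every array was taken as the background. Of these, 0.73% had an r of deviations with DM09904P4 as high as that of DM14516P3, whose rank was 104, and 0.126% had one with DM14516P3 as high as that of DM09904P4, whose rank was 18. The 5th and 95th percentiles of the background were -0.39 and 0.52 for DM09904P4, and -0.36 and 0.49 for DM14516P3. With principal components 1 and 2 of the within-photoperiod spread removed, r was again 0.69. These components held 11.9% of the variance within photoperiods of DM09904P4 and 4.06% of that of DM14516P3, against 23.8% at the median over all probes. The spread of the 2 transcripts within photoperiods, at SDs of 0.31 and 0.31, was below the 0.37 of the median probe. A small p for photoperiod favours a small spread, so these SDs are a description tied to the listing. With slide as a second block r was 0.69. Within the 6 slides of 3 or more arrays, r of the deviations ran from 0.07 to 0.97.

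Over levels in the 30 animals, photoperiod differences included, the 2 transcripts had an r of 0.84. DM09904P4 was the probe most like DM14516P3 of the 11766 compared, and DM14516P3 the second most like DM09904P4. Both were listed as responding in 20L:4D in these same animals, so these ranks are tied to the listing and are a description only. The most like DM09904P4 was DM05236P2 (r = 0.89, and 0.69 for deviations from photoperiod means), which the study's list does not name. Its level averaged -0.19, -0.33, -0.13, 0.23 and 0.69 from the shortest to the longest day, with a difference from the control of 0.46 in 20L:4D, under the 1.5-fold threshold.

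The next most like DM09904P4 were DM08124P1, DM08665P4 and DM00047P1, with r of 0.78, 0.78 and 0.77 over levels and 0.59, 0.69 and 0.75 over deviations. After DM09904P4, the most like DM14516P3 were DM08124P1, DM01004P3, DM01753P3 and DM05236P2, with r of 0.71, 0.69, 0.68 and 0.67 over levels and 0.58 or less over deviations. DM08124P1 and DM05236P2 thus appear beside both. None of these probes has a name in the study's list, and all were well above background on all 30 arrays.

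Beside the 2 PER transcripts, 2 probes of the study's list carry the name of a clock component or of its relatives. Both were listed by the study in the 3 shorter days from these animals, so their calls there are not independent evidence. Neither was called in 20L:4D, where 0.816% of all probes were called in either direction. The study did not list them there and listed the PER transcripts there only, so this contrast follows from the listing.

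DM00285P3 is named a nuclear receptor of subfamily 1 group D, the group of the mammalian REV-ERB proteins, which repress clock genes, and a relative of the insect ecdysone-induced receptor E75. Its level was -1.70, -1.07 and -0.19 at the lowest, median and highest in 16L:8D. In 12L:12D it was 0.29, 0.82 and 1.05. With 4 h of light it ran from -1.08 to 1.12 and with 8 h from -0.90 to 1.19, so animals there overlapped the control. The difference in 12L:12D was 1.83 ± 0.36 on the log2 scale (3.55-fold), and it was 1.27 ± 0.36 with 4 h of light and 1.36 ± 0.36 with 8 h. In 20L:4D, where the study did not list it, the difference was 0.11 ± 0.36.

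DM09476P2 is named F-box/LRR-repeat protein, the family of fly JETLAG, which marks a clock protein for breakdown, although which member this is was not determined. It was lower in the 3 shorter days, with log2 differences of -1.82 ± 0.43, -1.85 ± 0.43 and -1.86 ± 0.43 with 4, 8 and 12 h of light. Its level in the control was -1.67, 0.65 and 1.25 at the lowest, median and highest, and in 20L:4D -1.98, 0.25 and 1.23, so animals of these photoperiods spread over nearly the whole range. The difference in 20L:4D was -0.46 ± 0.43. In 12L:12D, with a lowest, median and highest level of -1.87, -1.58 and -1.21, the range was narrow.

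Of the light-sensing names, the list held 2 class a rhodopsin G-protein coupled receptors, gprop1 (DM06155P2) and gprop2 (DM12611P4), members of the receptor class to which the visual pigments belong. The study's probe list gives these probes in experimental trial 1, and the study also names a gprop2 transcript as responding in these animals. It names a blue wavelength opsin as well, which was not matched to a probe and was not analysed here. Neither of the 2 gprop probes was called in any photoperiod here, with photoperiod p of 0.631 and 0.0639 in limma. The level of gprop1 averaged between 4.04 and 4.23 in all 5 photoperiods. That of gprop2 averaged 0.23 ± 0.12 in the shortest day, 0.57 ± 0.20 in the control and 0.67 ± 0.38 in the longest day (SD, n = 6 each), with a difference from the control of -0.34 ± 0.16 in 4L:20D. Cryptochrome, Timeless, Clock and Cycle are not named in the list, and their transcripts were not analysed here.

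**Figure D5:**
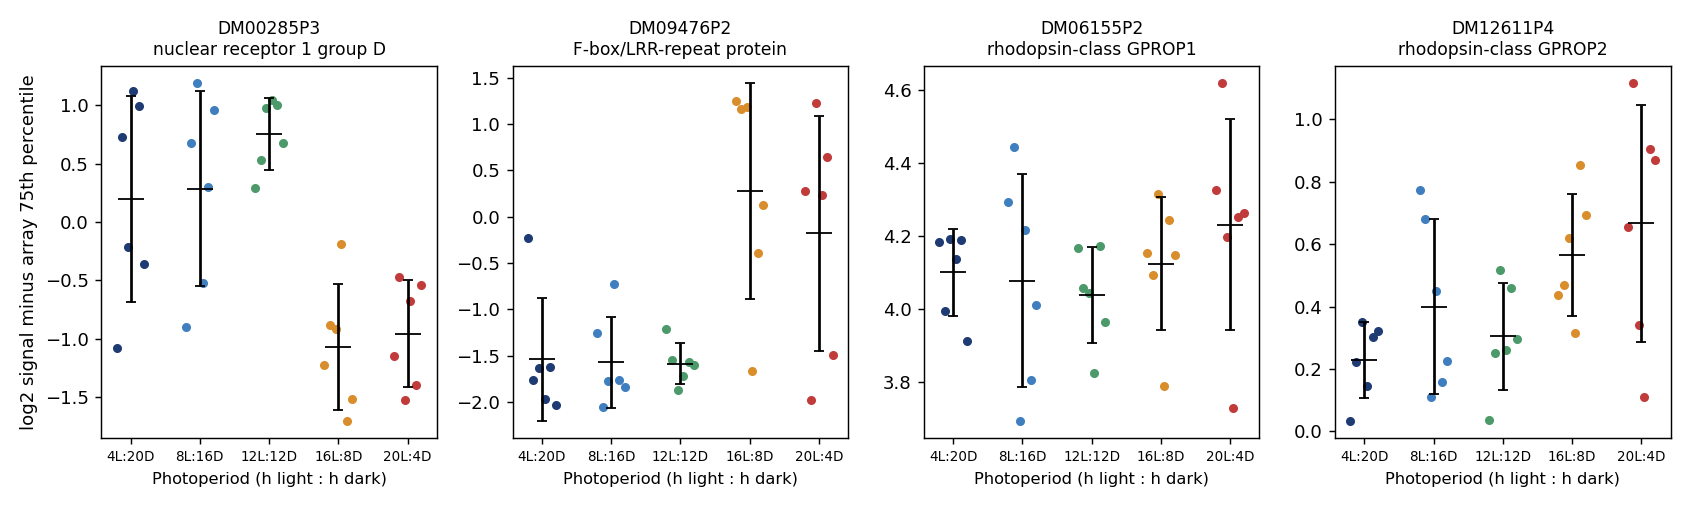
Level (y axis, log2 processed signal minus the 75th percentile of the array) of the 2 other clock-related and the 2 light-sensing transcripts in the 6 animals of each photoperiod (x axis), with the mean ± SD as black bars. DM00285P3 averages 0.75 in 12L:12D and -1.07 in 16L:8D, DM09476P2 spreads from -1.98 to 1.25 over 16L:8D and 20L:4D, and the gprop transcripts vary less between photoperiods.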

How the data were processed

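RNA of 30 single animals was hybridized to one-colour Agilent arrays. The authors deposited a processed signal per spot, which is a background-subtracted linear intensity (Feature Extraction 10.7.3.1 per the file headers, 9.5.1 per the submitters' processing notes), and a table of log2 values, scaled by the authors to each array's 75th percentile and then to each probe's median. The processed intensity was used here. The correlation of the deposited log2 values with the recomputed ones was at least 0.9999 on every array. Control spots (536 of 15744 per array) and 188 outlier spots were left out, and log2 spot values were averaged per probe. Each of the 2 transcripts has 1 spot. Between 10568 and 12895 probes per array were well above background. The number of arrays limits the precision.

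Values were log2 of the intensity minus the 75th percentile of the array. limma 3.58.1 in R 4.3.3 was fitted over all probes with photoperiod, animal letter and their interaction, without a filter on dim probes, and was tested on simulated data. Responded means an unadjusted p under 0.01 for photoperiod. P-values were adjusted by the Benjamini-Hochberg method over all probes of a contrast. The animals share boxes and chambers, so p-values measure the spread between these animals only. Permutation tests used Python 3.11.15 and scipy 1.17.1.

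The 2 transcripts, the lists of names and the tests were chosen with earlier results of these data known. Clock and light-sensing names were matched in the study's list of 953 probes, and a receptor matched only by letters inside "secretin" was left out by its name. The most similar probes were the 5 with the highest r among those well above background on at least 15 arrays. The contrast of 20L:4D with the other 4 photoperiods, the F test among those 4, the slope without 20L:4D, the ratio of the 2 transcripts, the differences within slides, and the agreement after removal of axes of spread, after normexp or without 20L:4D were chosen after seeing the data. The numbers of the exposure replicates do not pair chambers across photoperiods: of 30 same-numbered pairs, 12 correlated above 0.1 in their deviations over all probes (range -0.60 to 0.60).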

Additional observations from a re-analysis of the deposited data

Results flagged for a closer look

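Animal A of chamber 1 in 12L:12D stood apart from the other 5 animals of its photoperiod in DM14516P3, with a level of -3.96 on the log2 scale against -4.92 to -4.56 in the others. Its gap to the next animal was 0.629 of the range of the group, just above Dixon's critical value of 0.625 for 6 animals. Chance marks about 1 in 20 groups in this way, and 10 groups were looked at. The same animal was also the highest of its photoperiod in DM09904P4, at -1.41, where it did not pass that criterion. Its chamber mate was at -4.63 and -1.78.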

How the results depend on the processing

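Calls by the study's rule changed under these alternatives. For DM09904P4, 20L:4D minus 16L:8D lost its call under the slide block (0.50), with normexp (0.51) or at a threshold of 2-fold (0.67). It also lost it without chamber 2 of 16L:8D (0.57), and ran from 0.57 to 0.80 with a chamber left out. With slide as a block, 8L:16D minus 16L:8D was called (-0.63). The difference in 12L:12D, not called, ran from -0.48 to 0.0088 with a chamber left out. For DM14516P3, the p for photoperiod was 0.138 with normexp, and 20L:4D minus 16L:8D was not called with normexp (0.48) or at 2-fold (0.93). Its differences in the shorter days, none of them called, changed sign in 4L:20D with slide as a block (-0.16), in 8L:16D with the E1A spike-in covariate (0.15) or a chamber left out (-0.13 to 0.081), and in 12L:12D with quantile normalization (-0.026), axes of spread as covariates (-0.23) or a chamber left out (-0.11 to 0.20). The agreement of the 2 transcripts did not pass over chamber means (0.59). Normexp started from the median spot signal and its local background, and it adds an offset of 50, which compresses dim signals by construction. Why results changed under normexp or any other setting was not tested. In the remaining settings the direction, the calls and the side of the threshold of the p for photoperiod were kept. The unadjusted p of a single difference could still cross 0.05. For DM09904P4 in 8L:16D it was 0.0316 in limma and rose to as much as 0.199, with the E1A spike-in covariate. In 12L:12D it fell from 0.256 to 0.0108 without chamber 1 of 12L:12D. The adjusted p for photoperiod (0.0138 and 0.018) rose above 0.05 in both transcripts with slide as a block, chamber means, axes of spread or normexp (0.0535 to 0.104 for DM09904P4, 0.0577 to 0.569 for DM14516P3). With the replicate block no call changed. The difference 20L:4D minus 16L:8D, at 0.67 ± 0.17 and 0.93 ± 0.19, could not move there. Each photoperiod has 2 animals of each replicate number, so only the standard error could change. The adjusted p of that difference ran from 0.173 to 0.969 for DM09904P4 and from 0.0566 to 0.969 for DM14516P3 over all settings. DM14516P3 lay close to background.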
